A study of Homo sapiens with 9 samples.

Results

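The elastic fibre and microfibril genes examined here are ELN, FBN1, FBN2, MFAP2, MFAP4, MFAP5, FBLN1, FBLN2, FBLN5 and EMILIN1. They were taken by symbol, 1 row each, from the 25593 loci that every deposited table lists, and they lie on 10 different chromosomes. Of the 10 genes, 9 were tested. MFAP5 never reached an FPKM of 1 (fragments normalised to transcript length and to the mapped fragments of the library) and is described by its levels alone. ELN and MFAP4 reached an FPKM of 1 in all 6 libraries of the other media but in only 2 of the 3 libraries with inhibitor, so both entered the test through the media in which they are high.

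Elastic fibres give skin, lung and artery their recoil. They form when the soluble precursor tropoelastin is deposited on a scaffold of fibrillin microfibrils, is steered there by fibulins and is crosslinked by lysyl oxidases. Microfibrils also store latent TGF-β through the latent TGF-β binding proteins, and TGF-β receptor signalling is a known inducer of elastin and of several microfibril genes in mesenchymal cells. Neural crest mesenchyme supplies elastic tissue to the great arteries near the heart.

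The cells were neural crest-like progeny of the established embryonic stem cell line H9 (human), and RNA sequencing covered 9 cultures, 3 per medium, which the design text calls biological replicates. All 9 had passed through 6 days of differentiation with 10 µM SB431542, which inhibits the receptors for TGF-β, Activin and Nodal. Per the growth protocol they were sorted as CD271-high and CD73-negative, although the cell type label gives CD73 as positive, and were grown on fibronectin in 5% oxygen until passage 6 to 7. Medium F held FGF2 at 5 to 10 ng/ml. Medium FSB held the same FGF2 with SB431542 at 3 to 5 µM, and cells of group F_FSB spent 4 passages in FSB and then 3 in F. Thus every group had met the inhibitor during differentiation, and cells from before expansion were not analysed here, so higher and lower always compare media. In whole cultures, fewer cells that use a gene and less RNA per cell cannot be told apart.

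Summed FPKM ran from 361026 to 506146 per library. FSB replicates 1 and 2 were the closest pair of libraries, with Cufflinks intervals apart for 13.8% of tested genes, against 31.0% and 30.0% when each was set against FSB replicate 3. F replicate 1 lay closer to F_FSB replicate 1 (19.6%) than to either other F library (33.0% and 30.1%). The neural crest markers NGFR, TFAP2A, TWIST1 and ETS1 were higher in FSB than in F, 4 of 6 tested crest markers, while 3 further markers (SOX10, PAX3, FOXD3) were too low to test and FOXD3 was at 0 in all F and F_FSB libraries. The 9 crest markers summed to 157 to 197 FPKM over the F libraries, 422 to 455 over FSB and 133 to 146 in F_FSB. Of 6 mesenchymal stromal markers 4 (VCAM1, NT5E, ENG and PDGFRA) were lower in FSB than in F, and their sums were 498 to 570, 219 to 288 and 473 to 557 FPKM. Of 5 smooth muscle markers 2 (LMOD1 and CNN1) were higher in FSB, with sums of 36.6 to 68.5, 98.0 to 163 and 41.5 to 217 FPKM and MYH11, the smooth muscle myosin, at 0.420 to 1.26. DES went the other way, with every FSB library below every F library, but did not pass (log2 difference -1.08, limma, adjusted p = 0.0706). Beside these marker counts, 28.5% of all tested genes passed as higher in FSB than in F and 13.4% as lower. NGFR reached an FPKM of 1 in 2 F, 3 FSB and 3 F_FSB libraries. The smooth muscle gene LMOD1 did so in 1, 3 and 2, so some of their F values lie near the floor. The crest and stromal sums of FSB lay apart from those of both other media, whereas the smooth muscle sums of F_FSB overlapped both. The part of these markers in the results below was not tested.

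With inhibitor, 6 of the 9 tested genes were lower than in F and none was higher: MFAP4, ELN, FBLN5, FBLN2, EMILIN1 and MFAP2. FBN1, FBN2 and FBLN1 did not pass the test. The same 6 genes had every FSB library below every F library, as did 19.2% of all tested genes. In these samples 41.9% of all 13216 tested genes passed in this comparison, 13.4% as lower and 28.5% as higher. The median difference of the 9 genes was -1.16 on the log2(FPKM + 1) scale, beside 0.14 for all tested genes. After return from FSB to F, 6 of the 9 genes were higher than in FSB and none was lower, with FBN1 in the place of MFAP2. These 6 had every F_FSB library above every FSB library, against 19.2% of all tested genes. Here 41.8% of all genes passed, 13.7% as higher and 28.2% as lower, and the medians were 1.47 for the 9 genes and -0.13 for all. Both comparisons use the same 3 FSB libraries. ELN and MFAP4 entered the test through F and F_FSB, so their calls add no support to either count of 6, and both medians include them. Among the remaining tested members the middle values were -1.15 (MFAP2) for FSB minus F and 0.84 (EMILIN1) for F_FSB minus FSB. The balance of the transcriptome depended on scaling. Of the genes called in FSB against F, 68.0% were higher as deposited, 49.6% after scaling by median ratios and 53.2% after quantile normalization. For F_FSB against FSB the shares higher were 32.7%, 49.8% and 45.7%. Median ratios brought the median of all genes to 0.00 in both comparisons; 7 members were then lower in FSB, the 6 named and FBN1, and 6 were higher in F_FSB.

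**Figure D1:**
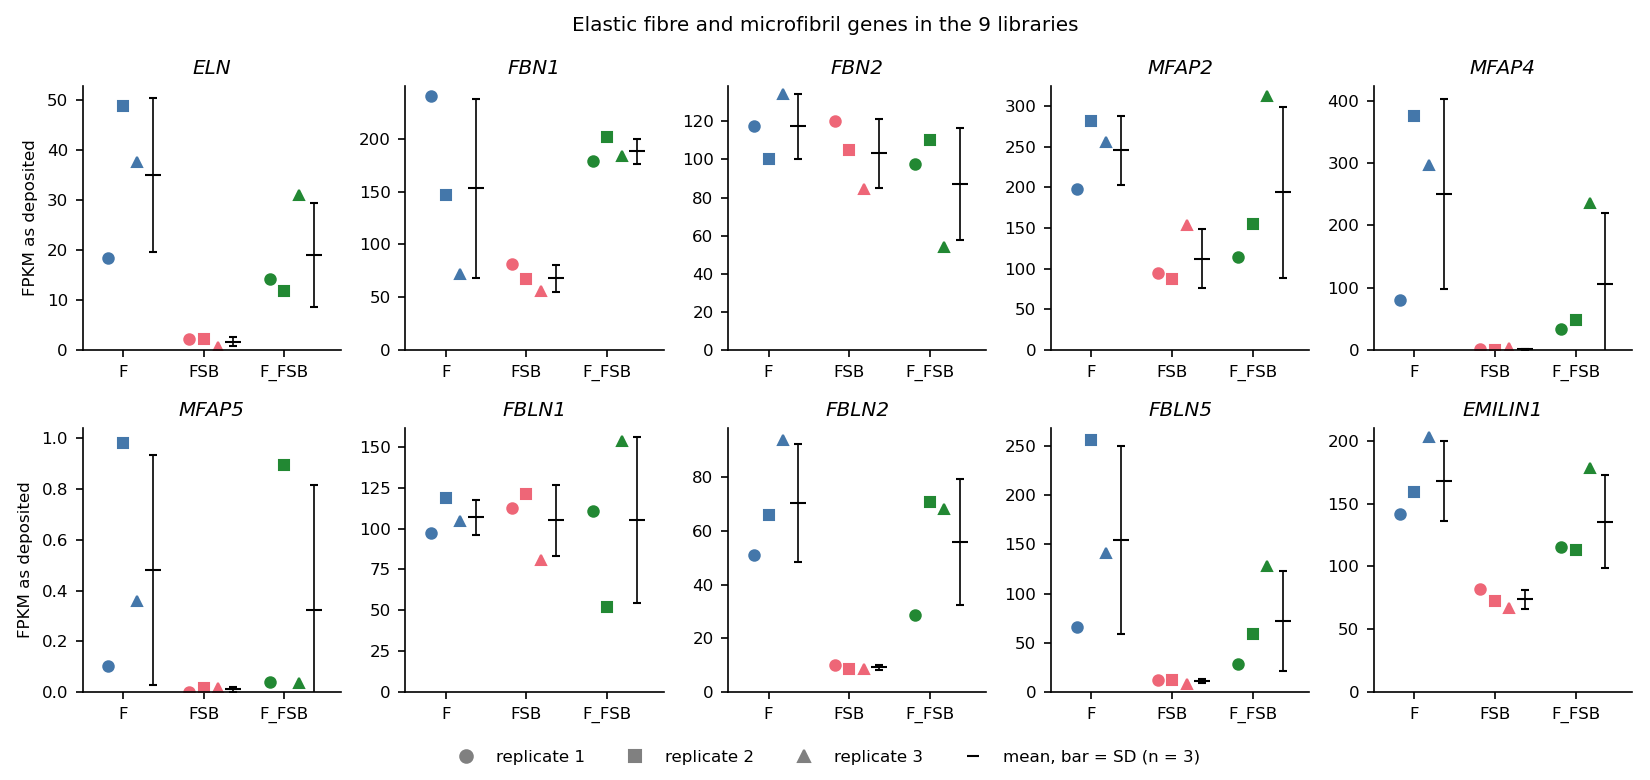
FPKM as deposited (vertical axes, each from 0) of the 10 genes in the 9 libraries, by medium; symbols are replicates, and the bar beside each group is the mean with its SD (n = 3), cut at 0 where the SD exceeds the mean. MFAP4, ELN, FBLN2 and FBLN5 lie near the bottom of their axes in all FSB libraries, FBN2 and FBLN1 have overlapping groups, and MFAP5 stays under 1 throughout.

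ELN (chromosome 7, 73442427 to 73484237 on GRCh37, plus strand) encodes tropoelastin, the elastic core of the fibre. It was at 18.4, 48.8 and 37.5 FPKM in F replicates 1 to 3, 2.24, 2.23 and 0.583 in FSB and 14.2, 11.9 and 31.0 in F_FSB. Every F and F_FSB library was above every FSB library, and F and F_FSB overlapped. The mean of F was 34.9 ± 15.4 FPKM and that of FSB 1.69 ± 0.956 (SD, n = 3), while F_FSB averaged 19.0 ± 10.4, so the F mean was 20.7-fold that of FSB. The difference between FSB and F was -3.71 on the log2 scale (SE 0.47, limma, BH-adjusted p = 0.000874), and that between F_FSB and FSB 2.85 (adjusted p = 0.00244). ELN ranked at percentiles 73.3 to 90.9 of tested genes in the F libraries and at 3.6 to 17.0 in the FSB libraries.

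Fibulin-5 (FBLN5, chromosome 14, 92335755 to 92414046, minus strand) binds tropoelastin and integrins and brings elastin to microfibrils. Its levels were 66.5, 256 and 141 FPKM in F, against 12.3, 12.3 and 8.69 with inhibitor in FSB and 28.3, 59.5 and 128 after the switch in F_FSB. The FSB libraries were again below all others, and they were far more alike than the F libraries, which spanned 3.84-fold. FBLN5 was lower in FSB than in F with a log2 difference of -3.50 (95% interval -4.87 to -2.13, limma, adjusted p = 0.00286) and higher in F_FSB than in FSB by 2.35 (0.99 to 3.72, adjusted p = 0.0143). Within each library FBLN5 stood above ELN. The log2 ratio of FBLN5 to ELN was 1.86, 2.39 and 1.91 in F, 2.45, 2.46 and 3.90 in FSB, and 1.00, 2.33 and 2.04 in F_FSB, so elastin was the scarcer of the pair throughout and its share of the pair was smallest in FSB replicate 3. With 1 FPKM added to both genes, the mean shift of this ratio from F to FSB fell from 0.88 to 0.21.

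Of the fibrillins, FBN1 passed in 1 of the comparisons with FSB and FBN2 in none. Fibrillin-1 (FBN1, chromosome 15, 48700503 to 48937985, minus strand) is the main structural protein of adult microfibrils, and fibrillin-2 (FBN2, chromosome 5, 127593601 to 127873735, minus strand) is best known from developing tissue. FBN1 was at 241, 146 and 71.8 FPKM in the F libraries, 81.0, 66.9 and 55.6 in those of FSB and 179, 201 and 183 in those of F_FSB. F replicate 3 fell within the FSB range, while F_FSB was tight and above all FSB libraries. The difference of FBN1 between FSB and F was -1.01 (95% interval -1.88 to -0.15) and missed the threshold (limma, adjusted p = 0.0601). It passed after median ratio scaling (adjusted p = 0.0443), after quantile normalization (0.0355), with the replicate number as a block (0.0442) and without F replicate 3 (0.00437), and the range over all alternatives was 0.00437 to 0.157. FBN1 was higher in F_FSB than in FSB by 1.47 (SE 0.38, adjusted p = 0.0149), a call lost without FSB replicate 3 (adjusted p = 0.0501, the highest of the alternatives, whose lowest was 0.00162).

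FBN2 was at 117, 100.2 and 134 FPKM in F, against 120.3, 105 and 84.3 with inhibitor in FSB and 97.5, 110.2 and 53.8 after the switch in F_FSB, with overlap among all media. Its differences were -0.19 for FSB minus F (-0.80 to 0.42, adjusted p = 0.597) and -0.29 for F_FSB minus FSB (-0.90 to 0.32, adjusted p = 0.412). The lower ends of those intervals lie at -0.80 and -0.90, so a moderate fall of FBN2 lies within them. FBN2 made up 59.8%, 61.1% and 60.2% of the FPKM of both fibrillins in FSB, against 32.8%, 40.6% and 65.2% in F and 35.2%, 35.4% and 22.7% in F_FSB. A ratio within a library does not depend on how libraries are scaled. The FSB libraries agreed to within 0.08 on the log2 ratio, F replicate 3 lay above them, and all F_FSB libraries lay below them. With 3 libraries against 3, a two-sided exact permutation test cannot give a p below 0.1, so ratios are described without a test.

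The balance of the fibrillin pair, that of fibulin-1 and fibulin-2 and that of FBLN5 and ELN did not overlap between FSB and F_FSB. For FBLN5 and ELN the gap was narrow, from 2.33 in F_FSB replicate 2 to 2.45 in FSB replicate 1. It also rests on ELN at 0.583 to 2.24 FPKM in FSB, and the ranges overlap once 1 FPKM is added to both genes. For the fibrillin pair and for fibulin-1 and fibulin-2, the bases before 1 RefSeq transcription start of each gene are shown. A link between these bases and the balance of a pair was not tested. Promoter entries from RefSeq (GRCh38.p14) were held for 6 of the 10 genes, in 9 entries, and the 4 windows shown were placed on GRCh37 by exact match. Capitals mark GTCT or its reverse complement AGAC, the core of the DNA element that SMAD proteins recognise. The FBN1 window is chr15:48937168-48937417 and that of FBN2 chr5:127873939-127874188, both on the minus strand. The FBN1 window lies inside the deposited locus, its upstream edge 568 bases from the 5′ end, and within introns of 5 GENCODE transcripts of the gene, so it is upstream of the RefSeq start alone. The FBN2 window lies 203 bases before the deposited locus and within an intron of 1 longer FBN2 transcript and of 1 transcript of SLC27A6 on the other strand.
FBN1: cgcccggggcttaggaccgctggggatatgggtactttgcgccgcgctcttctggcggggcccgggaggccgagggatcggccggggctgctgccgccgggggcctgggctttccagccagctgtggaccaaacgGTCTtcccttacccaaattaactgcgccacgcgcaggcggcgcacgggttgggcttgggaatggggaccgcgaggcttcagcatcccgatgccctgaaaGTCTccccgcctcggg
FBN2: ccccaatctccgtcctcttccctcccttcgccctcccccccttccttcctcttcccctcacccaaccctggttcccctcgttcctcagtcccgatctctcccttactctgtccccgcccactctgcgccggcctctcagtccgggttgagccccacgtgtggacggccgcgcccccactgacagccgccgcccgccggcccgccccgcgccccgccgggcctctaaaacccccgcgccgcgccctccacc
The FBN1 window holds 2 copies of the core and no GC box (GGGCGG, either strand). The FBN2 window holds no copy of the core and 3 GC boxes. Of 35116 upstream windows of 250 bases in the same table, 77.5% hold the core at least once and 42.6% hold a GC box, so a copy is the common case and is no sign of a bound site.

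**Figure D2:**
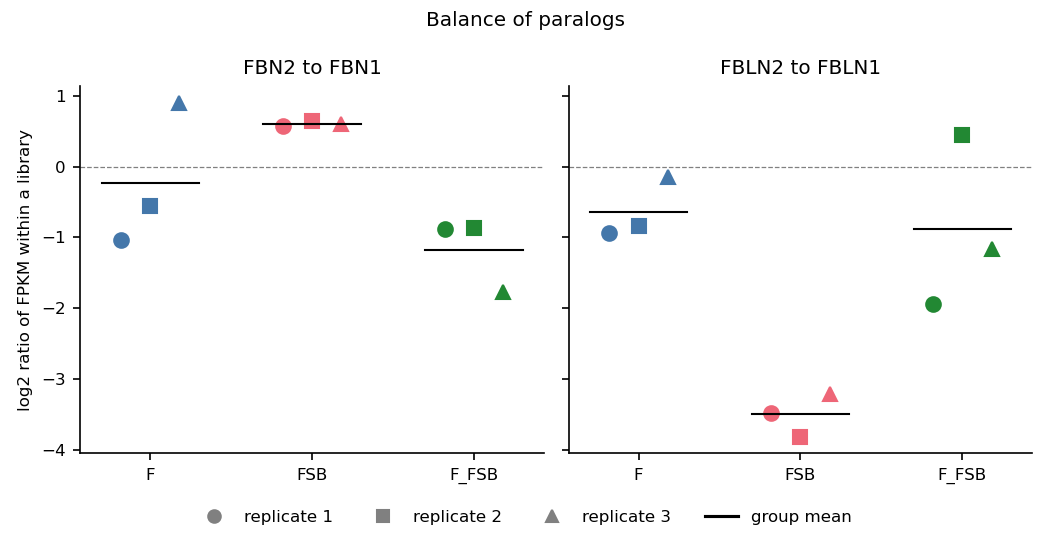
Log2 ratio of FPKM within a library (vertical axis, dashed line at equal levels) for FBN2 to FBN1 on the left and FBLN2 to FBLN1 on the right; points are the 3 replicates of each medium and bars are group means. The 3 FSB libraries coincide near 0.61 for the fibrillins, and for the fibulins they lie between -3.81 and -3.21, below every F and F_FSB library.

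Among the microfibril-associated proteins, MFAP4 had the widest range of the 9 tested genes. MFAP4 (chromosome 17, 19286755 to 19290532, minus strand) is a fibrinogen-domain protein that binds elastin and fibrillin. It was at 80.3, 375 and 297 FPKM in the F libraries, 1.07, 0.835 and 2.52 in those of FSB and 34.0, 48.3 and 237 in those of F_FSB. All FSB libraries were under 3 FPKM, and the lowest library of any other medium was F_FSB replicate 1. The F mean (251 ± 153, SD, n = 3) was 169.8-fold the FSB mean (1.48 ± 0.915), and the difference was -6.46 on the log2 scale (SE 0.79, limma, adjusted p = 0.000768). With each F or FSB library left out in turn, the fold ran from 128 (without F replicate 2) to 263. The highest came without FSB replicate 3, where the FSB mean was 0.952 FPKM. F_FSB was above FSB by 4.97 (adjusted p = 0.00209). MFAP4 was the top gene of the 10 in F replicates 2 and 3 and the ninth in FSB replicates 1 and 2. Its locus overlaps the end of MAPK7, a kinase gene at 9.11 to 12.8 FPKM in all 9 libraries. The libraries were strand-specific, but no source used here says whether the quantification used the strand, so fragments in the overlap cannot be assigned with certainty.

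MFAP2 (chromosome 1, 17300997 to 17308081, minus strand), also called MAGP-1, decorates fibrillin beads. Its levels were 198, 282 and 255 FPKM in F, against 95.2, 87.2 and 154 with inhibitor in FSB and 114, 154 and 313 after the switch in F_FSB. FSB lay below F in every library, whereas F_FSB overlapped both. MFAP2 was lower in FSB than in F with a log2 difference of -1.15 (SE 0.37, limma, adjusted p = 0.0374). That call was lost without F replicate 2 (adjusted p = 0.104), F replicate 3 (0.0886), FSB replicate 1 (0.109) or FSB replicate 2 (0.120), with no filter on low values (0.0629), and with FSB replicates 1 and 2 averaged (0.114), over a range of 0.00725 to 0.120 for all alternatives. The difference between F_FSB and FSB was 0.70 (-0.16 to 1.55) and did not pass (adjusted p = 0.165).

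MFAP5 (chromosome 12, 8798540 to 8815433, minus strand), the paralog known as MAGP-2, was almost silent. It was at 0.101, 0.983 and 0.360 FPKM in the F libraries, 0, 0.0171 and 0.0174 in those of FSB and 0.0388, 0.894 and 0.0340 in those of F_FSB. Every FSB library was below every other library, but the highest value of all was 0.983, and Cufflinks gave intervals as wide as 139% of the value on either side. MFAP5 supplied at most 0.575% of the FPKM of MFAP2 and MFAP5 together, in F_FSB replicate 2, so MFAP2 made up nearly all of the pair in all media. As a share of the pair, F_FSB replicate 3 (0.0109%) fell among the FSB libraries (0 to 0.0196%).

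Of fibulin-1 and fibulin-2, the second passed in both comparisons with FSB and the other in none. Fibulin-1 (FBLN1, chromosome 22, 45898719 to 45997014, plus strand) is found in elastic fibres and basement membranes, and fibulin-2 (FBLN2, chromosome 3, 13590625 to 13679922, plus strand) binds fibrillin and elastin. FBLN1 was at 97.5, 119 and 104 FPKM in F, against 113, 121 and 80.6 with inhibitor in FSB and 111, 51.9 and 153 after the switch in F_FSB, and the widest spread was inside F_FSB. The differences were -0.04 for FSB minus F (-0.86 to 0.77, limma, adjusted p = 0.937) and -0.11 for F_FSB minus FSB (-0.92 to 0.71, adjusted p = 0.831), with signs that turned under several alternatives. FBLN2 was at 51.0, 66.1 and 94.2 FPKM in the F libraries, 10.1, 8.63 and 8.73 in those of FSB and 28.8, 70.8 and 68.4 in those of F_FSB. All FSB libraries were below all others, and they differed among themselves by only 1.18-fold. FBLN2 was lower in FSB than in F with a log2 difference of -2.77 (SE 0.35, adjusted p = 0.000836) and higher in F_FSB than in FSB by 2.38 (adjusted p = 0.00144). FBLN2 made up 34.4%, 35.8% and 47.4% of the pair in F, 8.25%, 6.64% and 9.77% in FSB, and 20.6%, 57.7% and 30.9% in F_FSB. The F_FSB libraries thus straddled the F range, while those of FSB stood apart from both.

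The fibulin windows are chr22:45898513-45898711 for FBLN1 (199 bases, since 51 that GENCODE counts as exon were left out) and chr3:13590375-13590624 for FBLN2, both on the plus strand of GRCh37. The printed FBLN1 bases end 7 bases before the deposited locus and lie within introns of 2 longer FBLN1 transcripts, and the FBLN2 window ends at the base before its locus and lies in no GENCODE transcript. Capitals again mark GTCT or AGAC.
FBLN1: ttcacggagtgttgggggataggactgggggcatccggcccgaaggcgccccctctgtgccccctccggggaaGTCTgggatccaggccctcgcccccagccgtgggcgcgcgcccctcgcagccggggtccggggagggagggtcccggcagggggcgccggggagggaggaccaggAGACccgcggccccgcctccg
FBLN2: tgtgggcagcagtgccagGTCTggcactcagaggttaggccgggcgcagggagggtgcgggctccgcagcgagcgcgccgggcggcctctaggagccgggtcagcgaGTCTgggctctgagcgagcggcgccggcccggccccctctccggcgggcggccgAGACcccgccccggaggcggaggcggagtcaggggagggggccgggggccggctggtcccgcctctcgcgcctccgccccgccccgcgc
Here both paralogs hold the core, FBLN1 with 2 copies and FBLN2 with 3, and FBLN2 also holds 5 GC boxes. The printed FBLN1 bases hold no GC box, and its full 250-base window holds 1. The longer element CAGAC, whose reverse complement overlaps GTCT, is present in both, once in FBLN1 and at 2 places in FBLN2, as it is in 38.0% of all windows. An AP-1 element (TGANTCA) was found in 1 of the 9 member windows, upstream of an MFAP2 start with 2 copies, and in 6.57% of all windows. A TATA box (TATAAA) was found at 1 of the FBLN5 starts and in 10.7% of all windows.

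EMILIN1 (chromosome 2, 27301435 to 27309271, plus strand) sits between elastin and microfibrils and binds the TGF-β precursor. Its levels were 142, 159 and 203 FPKM in F, against 81.9, 72.9 and 67.1 with inhibitor in FSB and 115, 113 and 179 after the switch in F_FSB. The difference was modest and even: all FSB libraries were below all others, with a spread of 1.22-fold. EMILIN1 was lower in FSB than in F with a log2 difference of -1.16 (SE 0.20, limma, adjusted p = 0.0033) and higher in F_FSB than in FSB by 0.84 (SE 0.20, adjusted p = 0.0123). The second call was lost after scaling to equal FPKM sums (adjusted p = 0.0503, the highest of the alternatives, whose lowest was 0.00918). In all 9 libraries the deposited FPKM of EMILIN1 lay outside the interval Cufflinks gave for it, as did 4 values of FBLN5 and 2 of FBN1. With the middle of that interval in place of FPKM, the EMILIN1 differences were -1.15 and 0.83.

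**Figure D3:**
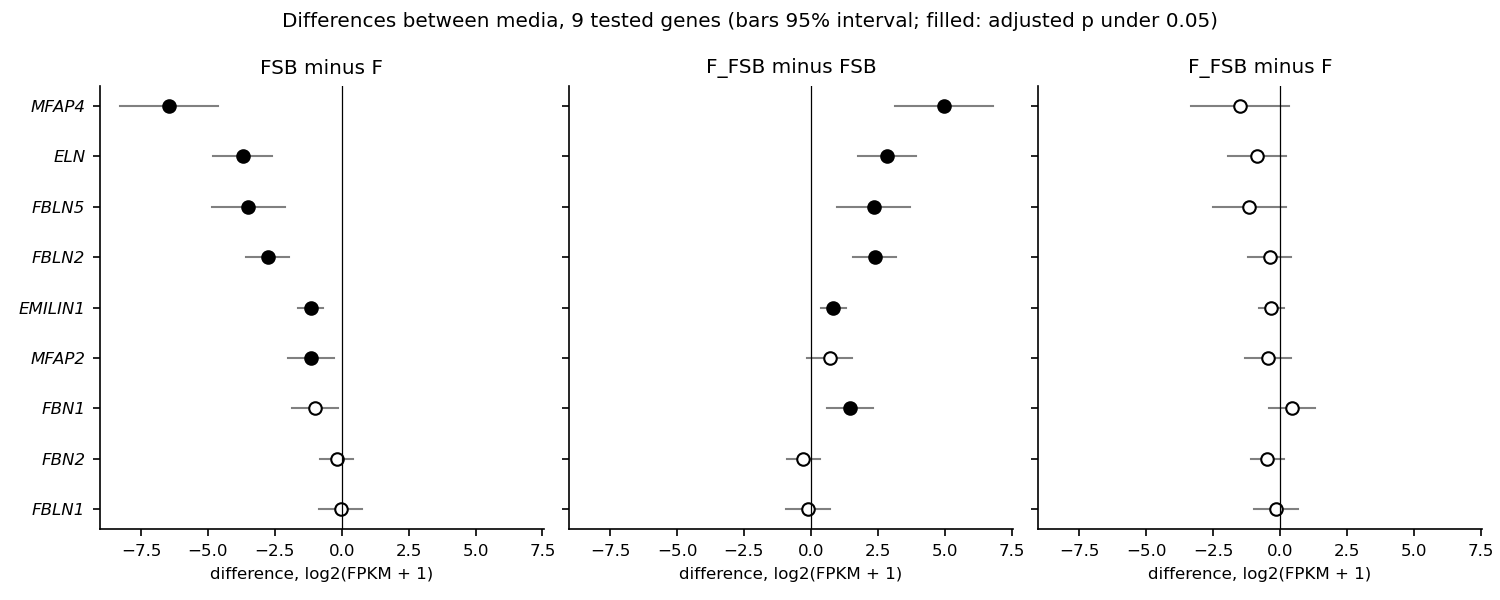
Differences between media on the log2(FPKM + 1) scale (horizontal axes) for the 9 tested genes, with 95% intervals from limma; filled points have an adjusted p under 0.05. In the left panel 6 genes are filled and lie below 0, in the middle panel 6 are filled and lie above 0, and in the right panel none is filled.

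Cells returned to F were set against cells that had stayed in F. None of the 9 genes passed (limma with BH adjustment). Of all tested genes 1 passed, 0.00757%, and 1195 had an unadjusted p under 0.05, so few genes passed anywhere in this comparison. Without F replicate 1, 74 genes passed, again with 0 of the 9 members. All 9 genes had overlapping libraries, whereas 13.0% of all tested genes did not overlap in 1 direction or the other. ELN was at 19.0 ± 10.4 FPKM in F_FSB and 34.9 ± 15.4 in F, a difference of -0.86 (-1.94 to 0.23). MFAP4 differed by -1.49 (-3.32 to 0.34) and FBLN5 by -1.14 (-2.51 to 0.22). FBN1 was the single member with a value above 0, 0.46 (-0.41 to 1.32). The intervals of MFAP4, ELN and FBLN5 reach to -3.32, -1.94 and -2.51, so differences of several fold are not excluded for these genes, whereas that of EMILIN1 ran from -0.79 to 0.15.

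FPKM is per transcript length, so levels can be ordered within a library. The orders given here are of group means, and the gene with the top mean did not lead every library of its medium. Overlap compares ranges over the libraries of a medium, not values within a library. In F the order of means was MFAP4, MFAP2, EMILIN1, FBLN5, FBN1, FBN2, FBLN1, FBLN2 and ELN, from 251 ± 153 to 34.9 ± 15.4 FPKM, and neighbours overlapped except FBLN1 with FBLN2 and FBLN2 with ELN. In FSB it was MFAP2, FBLN1, FBN2, EMILIN1 and FBN1, from 112 ± 36.4 to 67.8 ± 12.7 FPKM, then FBLN5 (11.1 ± 2.07), FBLN2 (9.17 ± 0.849), ELN (1.69 ± 0.956) and MFAP4 (1.48 ± 0.915). Neighbours among the 5 leading genes overlapped except FBN2 with EMILIN1, a gap followed FBN1, and FBLN5 overlapped FBLN2 as ELN did MFAP4. MFAP2 led the FSB means because of replicate 3, where it was at 154 FPKM and rank 1. In FSB replicates 1 and 2 it was at rank 3, behind FBN2 and FBLN1. EMILIN1 was at rank 4 and FBN1 at rank 5 in every FSB library. In F_FSB the order was MFAP2, FBN1, EMILIN1, MFAP4, FBLN1, FBN2, FBLN5, FBLN2 and ELN, from 194 ± 105 to 19.0 ± 10.4 FPKM. The neighbours FBN1 and EMILIN1 alone did not overlap. MFAP2 was at rank 1 in F_FSB replicate 3 alone, and FBN1 led F_FSB replicates 1 and 2. The 10 genes together summed to 1012, 1553 and 1339 FPKM in the F libraries, 517, 477 and 462 in those of FSB, and 722, 822 and 1346 in F_FSB. FBN2 and FBLN1 supplied 21.2% ± 2.61 and 21.6% ± 4.00 of that sum in FSB (SD, n = 3), against 9.37% ± 2.64 and 8.36% ± 1.11 in F. MFAP4 supplied 18.1% ± 8.84 in F and 0.309% ± 0.206 in FSB.

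Spread inside a medium was not alike across genes or libraries. F replicate 1 was the lowest of its group for 7 of the 9 tested genes and the highest for FBN1 alone, which was at 241 FPKM there. F_FSB replicate 3 was the highest of its group for 6 genes, and F_FSB replicate 1 the lowest for 5. FSB replicate 3 was the lowest of its group for 6 genes, yet the highest for MFAP2 and MFAP4. The coefficient of variation of MFAP4 was 60.9% in F, 62.0% in FSB and 106% in F_FSB. That of FBN1 was 55.3% in F, 18.7% in FSB and 6.24% in F_FSB. MFAP4, ELN and FBLN5 deviated in one direction in each F and F_FSB library except F_FSB replicate 2, where FBLN5 lay at its group mean.

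**Figure D4:**
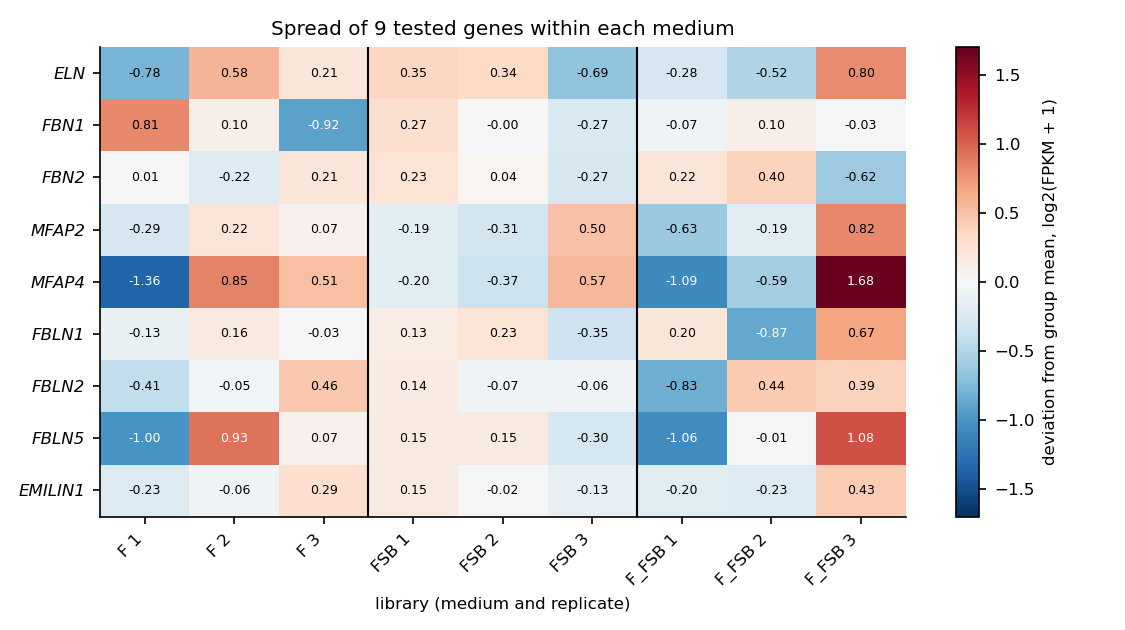
Deviation of each library (columns) from the mean of its medium on the log2(FPKM + 1) scale (colour and printed value) for the 9 tested genes (rows); vertical lines part the media. MFAP4 ranges from -1.36 to 0.85 within F and from -1.09 to 1.68 within F_FSB, and FBN1 in F runs opposite to FBLN5, ELN and MFAP4 in F replicate 1.

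The genes that build, crosslink and regulate elastic fibres were followed in lists of their own. The counts of each list stand beside the shares of all tested genes. In FSB against F, 13.4% passed as lower and 28.5% as higher. In F_FSB against FSB, 13.7% passed as higher and 28.2% as lower. LTBP2, LOXL4, EFEMP1, INHBA and PMEPA1 were under 1 FPKM in all FSB libraries, and EMILIN2 and MMRN2 in all F and F_FSB libraries. These 7 genes were tested only because of the media in which they are high, so their calls add no support to the counts of their lists. All 4 genes of the latent TGF-β binding protein family were lower in FSB than in F and higher in F_FSB than in FSB. LTBP2, which interacts with fibulin-5 and fibrillin, was at 58.3, 69.6 and 32.6 FPKM in the F libraries, 0.395, 0.335 and 0.257 in those of FSB and 71.6, 93.1 and 51.5 in those of F_FSB, and its FSB libraries, all under 1 FPKM, were far below the rest. The difference between FSB and F was -5.29 for LTBP2, -3.28 for LTBP3, -2.79 for LTBP4 and -2.43 for LTBP1 (limma, adjusted p = 3.13e-05, 4.70e-05, 1.92e-05 and 0.00151). LTBP4, which promotes elastin deposition with fibulin-5, was tight in F at 34.0, 31.9 and 35.2 FPKM and in FSB at 4.64, 4.21 and 3.30, and was at 19.9, 27.6 and 24.4 in F_FSB, below every F library. That last difference, -0.48, did not pass (adjusted p = 0.501).

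Of the 5 lysyl oxidases, which crosslink elastin and collagen, 3 were lower in FSB than in F and higher in F_FSB than in FSB, and 2 passed in neither. LOX, the founding member, was at 100.0, 45.6 and 25.4 FPKM in F, against 11.3, 13.2 and 7.46 with inhibitor in FSB and 73.2, 57.9 and 114 after the switch in F_FSB. Within F it was highest in replicate 1, as FBN1 was, and FSB was below all other libraries. The log2 difference between FSB and F was -2.13 for LOX, -0.85 for LOXL3 and -1.31 for LOXL4 (adjusted p = 0.00858, 0.0384 and 0.0437), while LOXL2 differed by 0.39 (adjusted p = 0.119). LOXL1, the relative most tied to elastin, was chosen after its values were seen. It was at 94.8 ± 20.1 FPKM in F and 68.7 ± 2.52 in FSB (SD, n = 3). Every FSB library was below every F library, but LOXL1 did not pass (limma, adjusted p = 0.14).

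**Figure D5:**
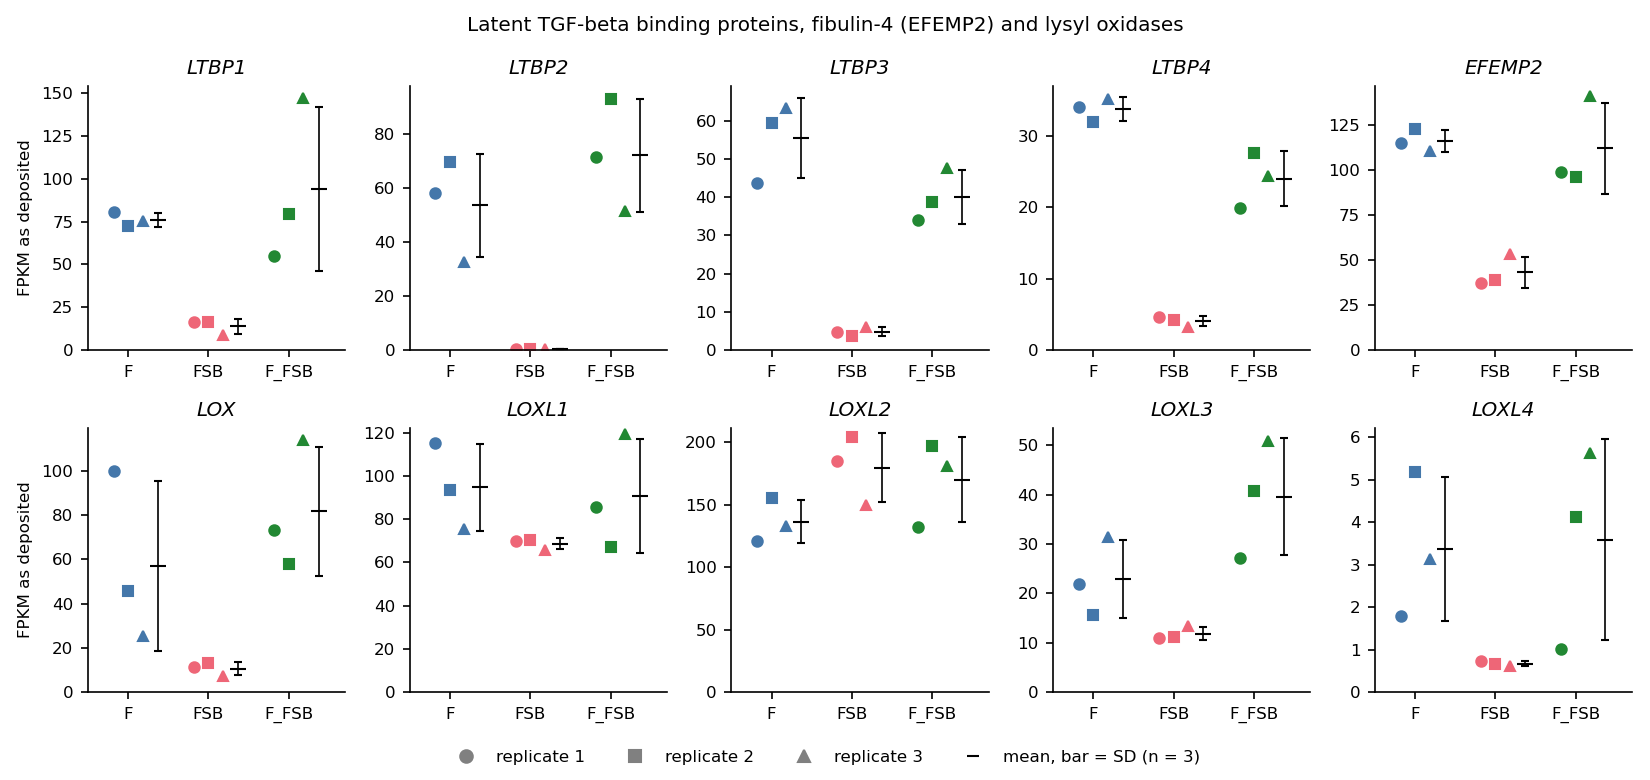
FPKM as deposited (vertical axes, each from 0) of the 4 latent TGF-β binding proteins, fibulin-4 (EFEMP2) and the 5 lysyl oxidases by medium; symbols are replicates, bars are the mean with SD (n = 3). The LTBP genes, EFEMP2, LOX, LOXL3 and LOXL4 have all FSB libraries below all F and F_FSB libraries, while LOXL2 overlaps across media.

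Other paralogs of the 10 genes went both ways. Of 9 listed, 7 were tested, and 3 were lower and 3 higher in FSB than in F. Fibulin-4 (EFEMP2), which recruits LOX to tropoelastin, was at 115, 123 and 111 FPKM in the F libraries, 37.4, 38.8 and 53.1 in those of FSB and 98.6, 96.1 and 141 in those of F_FSB. FSB was below all other libraries, with a log2 difference of -1.42 from F (adjusted p = 0.000846). Fibulin-3 (EFEMP1) was lower in FSB with a log2 difference of -3.29 (adjusted p = 0.00109). EMILIN2 ran opposite to EMILIN1: it was at 0.314, 0.289 and 0.543 FPKM in F, against 7.36, 7.56 and 7.80 with inhibitor in FSB and 0.177, 0.628 and 0.491 after the switch in F_FSB, higher in FSB by 2.64 (adjusted p = 3.13e-05). MMRN2, an endothelial relative of the emilins, was higher by 0.78 (adjusted p = 0.00422) at a mean of 1.09 ± 0.0810 FPKM in FSB. FBLN7, at a difference of 0.95, and HMCN1, at -1.21, were chosen after their values were seen (adjusted p = 0.0211 and 0.0463). In F_FSB against FSB, EFEMP1 and EFEMP2 were higher and EMILIN2, MMRN2 and FBLN7 lower, while HMCN1 did not pass (adjusted p = 0.0804).

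Among 8 microfibril-binding ADAMTS and ADAMTSL genes, 3 were tested, and ADAMTS10, a fibrillin-1 partner, was lower in FSB than in F with a log2 difference of -1.32 (adjusted p = 0.00446) and higher in F_FSB than in FSB by 1.18 (0.00689). THSD4 and ADAMTSL4 did not pass in either comparison. Of 5 processing, chaperone and elastin receptor genes, CTSA, FKBP10 and GLB1 were lower in FSB and NEU1 was higher. CTSA, the protective protein of the elastin receptor complex, differed by -1.44 (adjusted p = 0.000977), and FKBP10, a chaperone of tropoelastin and collagen, by -0.81 (0.00464). NEU1, the sialidase of the same receptor, was higher by 0.57 (0.0157). On return to F, 4 of the 5 were higher than in FSB, the fourth being the fibrillin-processing protease FURIN (chosen after its values were seen, 0.48, adjusted p = 0.0171).

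Of 8 elastin-degrading proteases, 3 were tested and MMP2 alone passed. This gelatinase was at 645, 517 and 480.4 FPKM in the F libraries, 42.1, 39.1 and 84.6 in those of FSB and 575, 496 and 651 in those of F_FSB, so FSB was below every other library, with a log2 difference of -3.36 from F (adjusted p = 0.000178). Among 6 tested integrins that bind fibrillin or fibulin-5, ITGA8 was higher in FSB by 3.95 (adjusted p = 0.00124), and ITGA5 and ITGB5 were lower, with differences of -0.76 and -1.15 (0.00526 and 0.00808). ITGA8 was at 14.6, 2.07 and 3.59 FPKM in F, against 103, 111 and 68.8 with inhibitor in FSB and 40.0, 29.3 and 21.3 after the switch in F_FSB. F_FSB lay between the other media with no overlap, and its difference from F, 2.33, did not pass (adjusted p = 0.42).

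Readouts of TGF-β receptor signalling did not move as a block. INHBA, PMEPA1, SKIL and TGFBI were lower in FSB than in F and higher in F_FSB than in FSB. INHBA, which encodes an activin subunit, was at 39.5, 13.3 and 28.2 FPKM in the F libraries, 0.736, 0.791 and 0.616 in those of FSB and 37.0, 33.8 and 15.6 in those of F_FSB, a difference of -3.91 between FSB and F (adjusted p = 0.000423). PMEPA1 and SKIL, feedback inhibitors of the pathway, differed by -2.25 and -1.85 (0.00415 and 0.00506), and TGFBI, a matrix protein chosen after its values were seen, by -2.78 (0.00547). TAGLN, an actin-binding protein of smooth muscle, was higher in FSB by 1.89 (0.00139), and CTGF and SMAD7 did not pass. No gene of these lists passed between F_FSB and F.

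The genes whose profile over the 9 libraries was most like that of ELN, FBN1 and FBN2 were sought among 12243 tested genes, by the root mean square difference of centred log2(FPKM + 1) values. Nearest to ELN were S100A16 (0.394), FBLN5 (0.437), PDGFRL (0.507) and OLFML2A (0.520), beside a median of 1.75 over all candidates. FBLN5, the second nearest, is itself a member, and the members were chosen with earlier results of these data known. S100A16, a calcium-binding protein, was at 63.1, 74.1 and 79.5 FPKM in the F libraries, 5.35, 5.47 and 5.13 in those of FSB and 29.4, 32.8 and 72.8 in F_FSB. Nearest to FBN1 were KRT80 (0.266), PDGFC (0.269), F2R (0.290) and SYT1 (0.291), beside a median of 0.836, and F2R, the thrombin receptor, was at 233, 219 and 110.4 FPKM in the F libraries, 88.8, 97.1 and 57.7 in those of FSB and 192, 165 and 226 in F_FSB. Like FBN1 it was lowest in replicate 3 of F and of FSB. Nearest to FBN2, which passed in no comparison, were LSM11 (0.177), OSBPL6 (0.182), PKI55 (0.190) and LRRC33 (0.203), beside a median of 0.431. None of the 4 genes nearest to FBN1 was among those nearest to ELN. KRT80 (0.187 to 2.86 FPKM), SYT1 (0.596 to 4.01), OSBPL6 (0.567 to 2.38) and LRRC33 (0.524 to 2.15) were low, where log2(FPKM + 1) understates changes. Likeness of this kind describes these 9 libraries, which share their media and scaling.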

How the data were processed

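RNA sequencing gave 1 gene table per culture. The deposited values are FPKM, which the authors made with Cufflinks per the file headers. TopHat2 2.0.12, Cufflinks 2.1.1 and the build GRCh37 are named in the submitters' processing notes. Masking, other options and use of strand: not given in the sources used here. The tables hold no fragment counts, so depth is unknown and no counting intervals are given.

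Starts in the tables count from 0 and are given 1-based. Loci whose quantification status was not OK throughout (95) were set aside, and the test covered the 13216 genes that reached an FPKM of 1 in 3 libraries or more. Values were analysed as log2(FPKM + 1), which understates changes of low genes, with limma 3.58.1 in R 4.3.3, a mean-variance trend and group means over all 9 libraries. Two-sided p-values were adjusted by Benjamini and Hochberg (BH) over all tested genes, with a threshold of 0.05. A fold is a ratio of group mean FPKM. Python 3.11.15, pandas 2.3.3 and matplotlib 3.10.9 joined the tables, searched sequences and drew figures, and the fit was tested on simulated data.

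The members and lists were chosen with earlier results of these data known. All members were named, with up to 4 tested genes per list by smallest adjusted p in FSB minus F, LOX, LTBP1, SOX9, NGFR and NT5E, and the 4 nearest profiles of ELN, FBN1 and FBN2. That search left out repeated symbols, those with a dot and those that start with MT-, RPS, RPL, LINC, SNOR, MIR or LOC. Alternatives covered pseudocounts, filters, scaling, weights, trend, the libraries fitted, each library left out and a replicate block. A gene of the signalling list is not reported here. The use of interval middles and the averaging of FSB replicates 1 and 2 were chosen after seeing the data.

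Of the lists for other cell types, the summed FPKM over 9 libraries was at most 6.08 for 5 endothelial, 4.08 for 4 epithelial, 1.53 for 3 pluripotent, 16.4 for 3 Schwann and glial, 11.7 for 4 peripheral neuron, 5.93 for 3 melanocyte, 43.5 for 3 paraxial mesoderm and 0.191 for 2 endoderm genes. SOX9 passed in no comparison (adjusted p = 0.742 between FSB and F, 0.226 between F_FSB and FSB, 0.709 between F_FSB and F).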

Additional observations from a re-analysis of the deposited data

How the results depend on the processing

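Each alternative was run for the 9 tested genes in 3 comparisons. In FSB minus F, 185 values kept direction and side of the threshold, 6 lost the call (all MFAP2), 4 gained it (all FBN1) and 3 turned in sign. In F_FSB minus FSB these were 192, 2, 0 and 4, and in F_FSB minus F 196, 0, 0 and 2. The cause of each change was not tested. FBLN1 turned to 0.0721 with array weights in FSB minus F and to 0.0498 with median ratios in F_FSB minus FSB. With each library left out in turn, FBLN1 ranged from -0.157 to 0.135 in FSB minus F (above 0 without F replicate 2 or FSB replicate 3), from -0.44 to 0.33 in F_FSB minus FSB (without FSB replicate 2 or F_FSB replicate 2) and from -0.48 to 0.29 in F_FSB minus F (without F_FSB replicate 2). FBN2 ranged from -0.49 to 0.0213 in F_FSB minus FSB (without F_FSB replicate 3) and FBLN2 from -0.61 to 0.0274 in F_FSB minus F (without F_FSB replicate 1). None of these reversed values passed the test.

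With each library left out in turn, members lower in FSB numbered 5 to 6 and members higher in F_FSB than in FSB 5 to 6. Genes past the threshold numbered 3629 (without FSB replicate 2) to 5780 in FSB minus F, 3817 to 5424 in F_FSB minus FSB and 0 to 74 (without F replicate 1) in F_FSB minus F. In F_FSB minus F the count was 0 with no filter on low values and with FSB replicates 1 and 2 averaged. The log2 ratio of FBLN5 to ELN moved to 0.21 with a pseudocount of 1 in FSB minus F. In F_FSB minus F it ranged from -0.53 to 0.13, turning without F_FSB replicate 1, and that of FBLN2 to FBLN1 from -0.91 to 0.28, turning to 0.00266 without F replicate 3 and to 0.28 without F_FSB replicate 1.

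Deviations from the group means showed no general pairing by replicate number, but with 3 libraries per group they cannot settle whether cultures were paired. The correlation of deviations was -0.136 to 0.292 for same-numbered libraries and was over 0.1 for 1 of 9 pairs. That pair was F replicate 1 with F_FSB replicate 1. For libraries with other numbers it was -0.230 to 0.127 and over 0.1 for 2 of 18 pairs. With the replicate block, 4842, 4983 and 0 genes passed in the 3 comparisons, against 5536, 5527 and 1 without it, and FBN1 passed as lower in FSB (limma, adjusted p = 0.0442), which made 7 members. Without counts, the precision of low values such as those of ELN, MFAP4 and MFAP5 in FSB is limited to what the Cufflinks intervals show.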
